A study of Rattus norvegicus with 18 samples.

Results

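Aquaporins are membrane channels that let water, and for some members glycerol, cross epithelia, and the vasopressin V2 receptor is the switch that sets how much water the collecting duct takes back. The genes described here are Aqp1, Aqp2, Aqp3, Aqp4, Aqp5, Aqp6, Aqp7, Aqp11 and Avpr2 in rat kidney, 9 listed symbols chosen by name. A row with the listed gene name was found for 8 of the 9, among 32116 genes in the table, and Aqp6 had 2 rows. RNA was sequenced from kidneys in 18 libraries, 6 per group. SZ rats received a daily dose of 100 mg/kg adenine plus 300 mg/kg SZ-A, CKD rats the same 100 mg/kg of adenine daily without SZ-A, and NC rats neither. Adenine given to rats is a model of chronic kidney disease in which crystals form in the tubules, so the CKD and SZ kidneys share the adenine and differ by SZ-A, a drug known here only by that code name. No source used here states the strain, sex, age, length of treatment or part of the kidney. Whether libraries came from different animals is not stated either, and the p-values below describe the spread from library to library, which may be technical.

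In the proximal tubule and the thin descending limb, AQP1 carries most of the water that the kidney takes back without hormonal control. In the principal cells of the collecting duct, vasopressin binds the V2 receptor on the blood side and Gs raises cAMP. Protein kinase A then phosphorylates AQP2, and vesicles carrying AQP2 fuse with the urine side. The same cAMP signal acts more slowly to increase transcription of the Aqp2 gene. Water that enters through AQP2 leaves through AQP3 and AQP4 on the opposite membrane. AQP6 sits in vesicles of acid-secreting intercalated cells and also conducts anions, AQP7 is a water and glycerol channel of the brush border of the straight proximal tubule, and AQP11 lies in the endoplasmic reticulum of proximal tubule cells.

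The levels are FPKM as deposited, fragment counts scaled by gene length and sequencing depth, which can be compared between genes because they are per length. Differences between groups are log2 fold changes on log2(FPKM + 1) from limma, fitted over 13851 genes with an FPKM of at least 1 in at least 6 libraries, with p-values adjusted over all of them by the Benjamini-Hochberg method and called under 0.05. The pseudocount understates the change of genes with low values. Libraries held between 15354358 and 18532375 recovered reads. The scaling factor that the deposited values imply, relative to plain library totals, averaged 1.04 in SZ, 1.14 in CKD and 0.897 in NC libraries, and reads from the mitochondrial genome made up 14.0% of reads in SZ, 10.3% in CKD and 19.4% in NC libraries. Rescaling the FPKM to a fixed sum (TPM) put the median log2 fold change of all genes at 0.37 in CKD against NC, -0.13 in SZ against CKD and 0.24 in SZ against NC, where the deposited scaling gave -0.040, 0.0055 and -0.035. In CKD against NC, 3595 genes were lower and 3378 higher with the deposited scaling, against 1279 lower and 6581 higher under TPM. The SZ against CKD counts were 945 lower and 576 higher as deposited, and 1613 lower and 285 higher under TPM, and those of SZ against NC were 1193 lower and 1726 higher as deposited, and 254 lower and 3544 higher under TPM. The libraries CKD replicate 2, CKD replicate 5 and SZ replicate 3 stood apart by a lower value of long genes, with slopes of the log2 value on log2 gene length of -0.211, -0.312 and -0.248. For the aquaporins, results are given without them where a call depends on them.

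Upstream sequence is shown for the most abundant of these genes and for a pair that lies close together on chromosome 7, whose levels differed in their response below. Of the 9 symbols, 8 matched a RefSeq promoter of the GRCr8 build, from 250 bases before to 50 bases after the gene's start. They are Aqp1 at chr4:85812534-85812833, Aqp2 at chr7:132590036-132590335 and Aqp6 at chr7:132610819-132611118, all on the plus strand, printed 5′ to 3′. Capitals mark TGACG, the half-site of the cAMP response element, GATAAG, a site read by GATA factors, and TATAAA, the TATA box, each searched on both strands, with no overlap between them in these promoters.
Aqp1: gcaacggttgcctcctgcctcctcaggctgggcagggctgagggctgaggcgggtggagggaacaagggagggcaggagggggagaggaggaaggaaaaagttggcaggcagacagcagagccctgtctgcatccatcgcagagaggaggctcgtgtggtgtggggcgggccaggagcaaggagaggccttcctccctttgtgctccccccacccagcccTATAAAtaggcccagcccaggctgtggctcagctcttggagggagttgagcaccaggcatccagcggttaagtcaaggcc
Aqp2: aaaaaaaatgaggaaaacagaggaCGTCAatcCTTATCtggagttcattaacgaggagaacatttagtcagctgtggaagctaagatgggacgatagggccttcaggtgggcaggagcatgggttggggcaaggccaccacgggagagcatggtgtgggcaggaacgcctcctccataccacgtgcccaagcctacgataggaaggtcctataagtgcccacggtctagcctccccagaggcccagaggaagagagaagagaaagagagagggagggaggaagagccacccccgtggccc
Aqp6: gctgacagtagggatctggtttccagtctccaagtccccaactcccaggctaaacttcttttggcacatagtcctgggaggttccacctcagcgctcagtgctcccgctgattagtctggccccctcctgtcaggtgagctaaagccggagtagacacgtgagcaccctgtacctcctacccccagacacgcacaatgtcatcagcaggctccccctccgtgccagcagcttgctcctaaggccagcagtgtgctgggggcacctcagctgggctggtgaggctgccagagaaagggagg
In Aqp2 the cAMP half-site begins 226 bases before the start and the GATA site 218 bases before it, both on the minus strand and therefore printed as their reverse complements. In Aqp1 the TATA box begins 30 bases before the start. The Aqp6 window holds none of the 3 motifs. Of all 33469 rat promoters in the RefSeq table, 21.2% hold TGACG, 7.05% hold GATAAG and 14.2% hold TATAAA, and among the promoters of the listed genes Aqp2 was the one with either of the first 2 motifs, while TATAAA was in those of Aqp1, Aqp3 and Avpr2. A match is a description of letters and not a site shown to be bound.

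The level of the V2 receptor could not be read from the deposited values. No row carried the name Avpr2. The row described as arginine vasopressin receptor 2 (ENSRNOG00000059862, mRatBN7.2 chrX:151633522-151635989, plus strand) was listed at 0 in all 18 libraries. It lies inside the span of another gene on the minus strand, which was above 0 in every library. The part of this overlap in the listed 0 was not tested. A listed 0 does not show that the receptor gene was silent.

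Among the 8 aquaporins with values, Aqp1 was the most abundant in every library of each group. The order of mean FPKM in NC kidneys was Aqp1, Aqp2, Aqp7, Aqp3, Aqp6, Aqp11, Aqp4 and Aqp5. In SZ and CKD kidneys it was the same except that Aqp11 came before Aqp6. Neighbours in this order were not always apart. Aqp2 was above Aqp7 in 5 of 6 SZ, 6 of 6 CKD and 5 of 6 NC libraries, with overlapping ranges in each group. Aqp11 was above Aqp6 in 3 of 6 SZ and 4 of 6 CKD libraries, whereas Aqp6 was above Aqp11 in 6 of 6 NC libraries. In CKD libraries Aqp6 was above Aqp4 in 3 of 6. Aqp1 held 69.8% ± 4.10 of the summed aquaporin FPKM in SZ, 55.6% ± 13.2 in CKD and 70.3% ± 6.13 in NC kidneys (SD, n = 6 each). Aqp2 held 15.1% ± 4.02 in SZ, 26.4% ± 11.6 in CKD and 13.8% ± 5.43 in NC kidneys (SD, n = 6 each). The spread of these shares was widest in the CKD libraries.

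**Figure D1:**
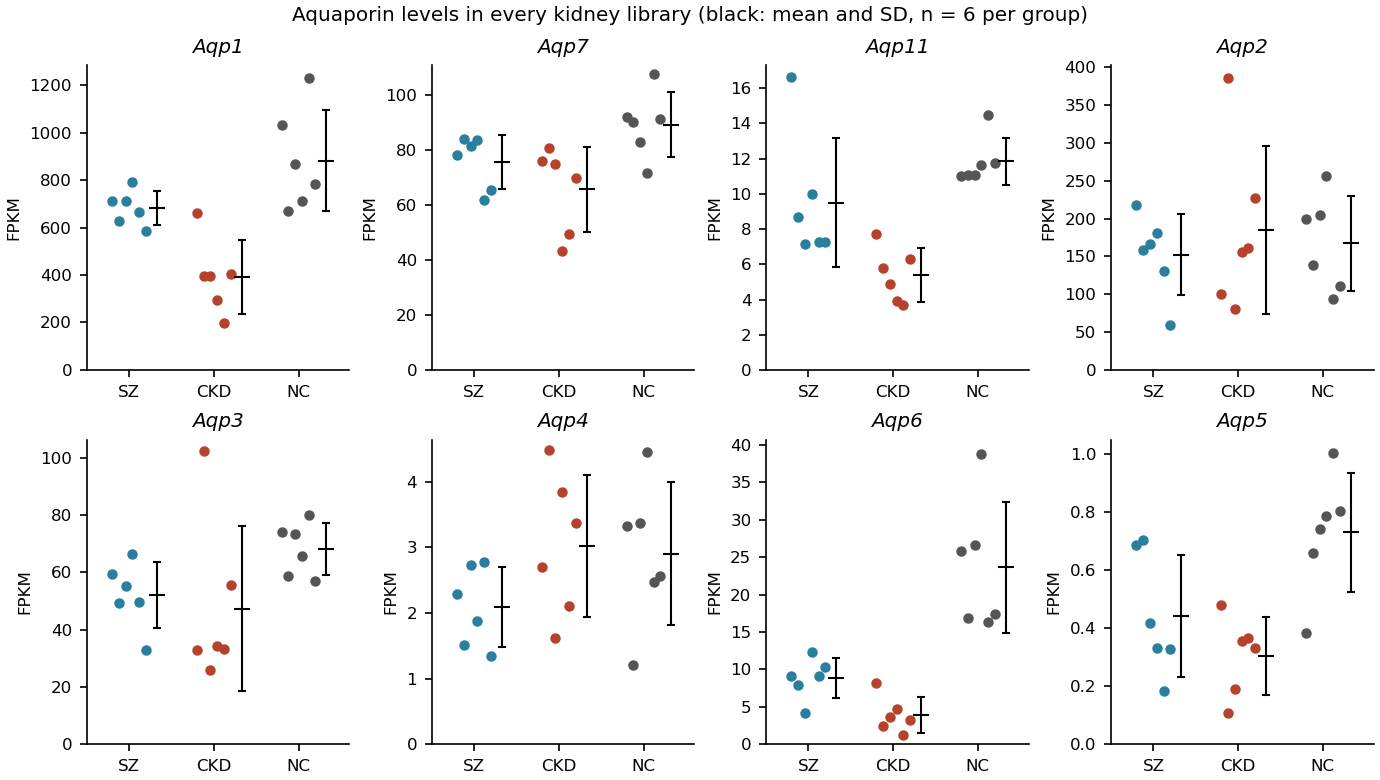
FPKM of 8 aquaporin genes in every library, with SZ, CKD and NC from left to right; each point is a library and the black bar is the mean with its SD (n = 6 per group), on axes that start at 0. Every CKD library lies below every NC library for Aqp1, Aqp11 and Aqp6, whereas the Aqp2 points of the 3 groups overlap, from 59.7 to 218 FPKM in SZ, 80.3 to 386 FPKM in CKD and 93.5 to 257 FPKM in NC.

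In CKD against NC kidneys, 5 of the 7 aquaporins that passed the low-value filter were lower, Aqp1, Aqp3, Aqp6, Aqp7 and Aqp11, and none was higher. Of all tested genes, 26% were called lower and 24.4% higher in the same comparison, 50.3% in all. The aquaporins' median log2 fold change was -0.67, against -0.040 for all tested genes. Aqp2 and Aqp4, both of the principal cell, were not called. Every CKD library was below every NC library for 3 of the 7, Aqp1, Aqp6 and Aqp11, as it was for 12.2% of all tested genes, with 14.2% separated the other way.

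Aqp1, the constitutive water channel of the proximal tubule and thin descending limb, lies at mRatBN7.2 chr4:84482512-84494690 on the plus strand and had between 10300 and 52017 recovered reads per library. Its lowest, median and highest values were 198, 397 and 663 FPKM in CKD kidneys, against 671, 824 and 1233 FPKM in NC kidneys. All CKD values were below all NC values. Aqp1 fell by 1.23 on the log2 scale (SE 0.22, limma adjusted p = 0.00018), and its mean in CKD was 0.444 times that in NC. The markers of the proximal tubule, a list of 6 transporters and endocytic receptors of that segment, moved with it: 5 of 6 were lower, and their summed FPKM ranged from 507 to 1358 in CKD libraries, against 2372 to 3263 in NC libraries. Under TPM and with plain totals 3 of the 6 were lower. In RNA from tissue, fewer cells of a type and less RNA per cell cannot be told apart. Aqp1 is also a gene of erythrocytes and of capillary endothelium. Hba-a2, an alpha globin gene whose reads are uncertain because near-identical copies exist, fell by 1.5 (limma adjusted p = 0.00053), and it was the one erythrocyte gene that passed the filter, of 3 found among 6 listed. The summed erythrocyte list ranged from 41.8 to 158 FPKM in CKD libraries and from 212 to 537 FPKM in NC libraries. Of the endothelial markers 2 of 4 were lower. The part of blood cells and of endothelium in the Aqp1 result was not tested.

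Aqp7, the glycerol and water channel of the straight proximal tubule, lies at chr5:56172519-56186642 on the minus strand. Its lowest, median and highest values were 43.3, 72.2 and 80.8 FPKM in CKD kidneys, against 71.4, 90.7 and 107.5 FPKM in NC kidneys. The ranges overlapped, and CKD replicates 4 and 5 were the lowest. Aqp7 fell by 0.46 (SE 0.15, limma adjusted p = 0.015), a call that depends on the scaling, since it was -0.014 with an adjusted p of 0.94 under TPM and -0.12 with an adjusted p of 0.46 with plain library totals. AQP7 is the main glycerol channel of fat cells. The adipocyte markers summed to 9.36 to 17.1 FPKM in CKD libraries and 9.74 to 40.2 FPKM in NC libraries, with Lep and Plin1, the genes of leptin and perilipin, below the filter and Adipoq called lower (-0.42), a call also lost under TPM (-0.043, adjusted p = 0.85) and with plain totals (-0.13, adjusted p = 0.47). Their part in the Aqp7 level was not tested.

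Aqp11, the intracellular member, lies at chr1:152046517-152056725 on the minus strand. In CKD kidneys its lowest, median and highest values were 3.71, 5.33 and 7.74 FPKM, against 11, 11.4 and 14.5 FPKM in NC kidneys. No value was shared between the groups. Aqp11 fell by 1.04 (SE 0.18, limma adjusted p = 0.00012). Both Aqp1 and Aqp11 kept the call under TPM, at -0.77 and -0.68.

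Aqp6, the channel of intercalated cell vesicles, showed the largest change of the 7 tested genes. Its lowest, median and highest values were 1.18, 3.45 and 8.22 FPKM in CKD kidneys, against 16.3, 21.6 and 38.9 FPKM in NC kidneys. The groups did not overlap, and the mean in CKD was 0.165 times that in NC. Aqp6 fell by 2.40 (SE 0.29, limma adjusted p = 3.338e-06) and stayed at -2.14 under TPM. All 5 intercalated cell markers were lower as well, with summed values of 49.7 to 101.5 FPKM in CKD libraries and 161 to 373 FPKM in NC libraries. The row used has between 28 and 682 recovered reads per library, and its annotated span, chr7:130633579-130735194 on the plus strand, contains Aqp2, Aqp5 and part of Faim2. A second row of the same name and span was listed at 0 in all 18 libraries, so a split of reads between the rows cannot be judged.

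Aqp2, the vasopressin-regulated channel at chr7:130711413-130716468 on the plus strand, was one of the genes that did not pass the test. Its lowest, median and highest values were 80.3, 158 and 386 FPKM in CKD kidneys, against 93.5, 169 and 257 FPKM in NC kidneys. The CKD range spanned the whole NC range, and CKD replicate 2 was the highest library of all 18. The log2 fold change was 0.037, with a 95% confidence interval from -0.72 to 0.79 and a limma adjusted p of 0.94, so changes in either direction of up to about that size remain possible. The sign of so small a value turned with the settings, to -0.27 without CKD replicates 2 and 5.

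Aqp3, the exit channel on the opposite membrane of the same cells (chr5:56239201-56244720, minus strand), had lowest, median and highest values of 25.9, 33.8 and 102 FPKM in CKD kidneys, against 57.0, 69.5 and 79.99 FPKM in NC kidneys. The 5 CKD libraries other than replicate 2 were below the lowest NC library, and replicate 2 was above the highest. Aqp3 fell by 0.67 (SE 0.25, limma adjusted p = 0.032). This call was lost under TPM (-0.23, adjusted p = 0.39), with plain library totals (-0.33, adjusted p = 0.23), in a fit of only the CKD and NC libraries (adjusted p = 0.052), without the low-value filter (adjusted p = 0.053), with the replicate block (adjusted p = 0.055) and on leaving out any of NC replicates 1, 3 and 5 or CKD replicates 1, 3, 4 and 5 (adjusted p from 0.057 to 0.083). All 4 principal cell markers were lower in CKD than in NC, with summed values of 66.0 to 169 FPKM in CKD libraries and 135 to 266 FPKM in NC libraries, and CKD replicate 2 had the highest sum of the CKD libraries. Under TPM and with plain totals 2 of these 4 markers were lower.

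Aqp4, the other exit channel (chr18:6507903-6524856, minus strand), was near 3 FPKM. In CKD kidneys its lowest, median and highest values were 1.61, 3.03 and 4.48 FPKM, against 1.21, 2.94 and 4.44 FPKM in NC kidneys. These ranges nearly coincide. The log2 fold change was 0.051 (95% confidence interval -0.39 to 0.49, limma adjusted p = 0.86). Aqp5, a channel of secretory glands reported in some intercalated cells (chr7:130721748-130726209, plus strand), had 4 to 38 recovered reads per library and did not pass the filter. Its lowest, median and highest values were 0.107, 0.343 and 0.478 FPKM in CKD kidneys, against 0.385, 0.764 and 1.00 FPKM in NC kidneys. The mean log2(FPKM + 1) was 0.377 in CKD and 0.782 in NC kidneys, a difference of -0.40 (unadjusted exact two-sided permutation p = 0.0043, where the smallest possible is 0.0022). Of other aquaporin genes, Aqp8, Aqp9, Aqp12a and Mip were found and none passed the filter. The urothelium of the renal pelvis also makes Aqp3, and its uroplakin genes, 4 markers summed, did not exceed 0.355 FPKM in any SZ, 0.698 FPKM in any CKD or 0.637 FPKM in any NC library.

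With SZ-A added to adenine, 3 of the 7 tested aquaporins, Aqp1, Aqp6 and Aqp11, were higher in SZ than in CKD kidneys, and none was lower. Of all tested genes, 4.16% were called higher and 6.82% lower, 11% in all. The median log2 fold change of the 7 was 0.27, against 0.0055 for all tested genes. The CKD libraries serve both this comparison and the one above, so a low CKD value lowers the first fold change and raises the second. In none of the 7 genes was every SZ library above, or below, every CKD library, a separation found upward for 0.628% and downward for 1.63% of all tested genes.

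For Aqp1 the lowest, median and highest values were 584, 688 and 791 FPKM in SZ kidneys, against 198, 397 and 663 FPKM in CKD kidneys. Of the CKD libraries only replicate 1 reached into the SZ range. The log2 fold change was 0.88 (SE 0.22, limma adjusted p = 0.020). Aqp6 had 4.19, 9.11 and 12.3 FPKM in SZ kidneys as lowest, median and highest, against 1.18, 3.45 and 8.22 FPKM in CKD kidneys. SZ replicate 3 was the lowest SZ library and CKD replicate 1 the highest CKD library, which made the overlap. The log2 fold change was 1.09 (SE 0.29, limma adjusted p = 0.026). Aqp11 had 7.16, 7.99 and 16.7 FPKM in SZ kidneys, against 3.71, 5.33 and 7.74 FPKM in CKD kidneys. The log2 fold change was 0.69 (SE 0.18, limma adjusted p = 0.022). SZ replicate 1 stood above the other SZ libraries of Aqp11, and without it the fold change was 0.53 (adjusted p = 0.042).

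These 3 calls held under TPM, at 0.74 for Aqp1, 1.08 for Aqp6 and 0.61 for Aqp11, and all lay close to the threshold. In a fit of only the SZ and CKD libraries none passed, with adjusted p of 0.053 for Aqp1, 0.059 for Aqp6 and 0.072 for Aqp11. In that fit 143 of all 13851 tested genes were called higher, against 576 in the main fit. Without SZ replicate 4 none passed (0.054, 0.072 and 0.058 in the same order of genes), and without CKD replicate 5 Aqp1 alone did. Of all tested genes, 163 were called higher without SZ replicate 4 and 210 without CKD replicate 5. Aqp6 also missed the threshold without CKD replicate 2, SZ replicate 1 or SZ replicate 6 (adjusted p from 0.050 to 0.054). Without CKD replicates 2 and 5 and SZ replicate 3 together Aqp1 missed it, at 0.68 with an adjusted p of 0.061. Markers moved in the same direction. Proximal tubule markers were higher in 4 of 6, with sums of 1399 to 2427 FPKM in SZ and 507 to 1358 FPKM in CKD libraries, and intercalated cell markers in 3 of 5, with sums of 82.8 to 158 FPKM in SZ and 49.7 to 101.5 FPKM in CKD libraries. Hba-a2 was higher by 1.10. The sum of erythrocyte genes ranged from 132 to 303 FPKM in SZ and from 41.8 to 158 FPKM in CKD libraries. The part of these cell types in the 3 results was not tested.

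The other 4 genes did not pass the test in SZ against CKD. Aqp2 had lowest, median and highest values of 59.7, 162 and 218 FPKM in SZ kidneys, against 80.3, 158 and 386 FPKM in CKD kidneys, with a log2 fold change of -0.18 (95% confidence interval -0.94 to 0.57, limma adjusted p = 0.76). Aqp3 had 32.7, 52.5 and 66.6 FPKM in SZ kidneys, against 25.9, 33.8 and 102 FPKM in CKD kidneys, with a log2 fold change of 0.27 (limma adjusted p = 0.49). SZ replicate 6 was the lowest SZ library for both Aqp2 and Aqp3. Aqp4 had 1.35, 2.08 and 2.77 FPKM in SZ kidneys, against 1.61, 3.03 and 4.48 FPKM in CKD kidneys (log2 fold change -0.36, limma adjusted p = 0.27). Aqp7 had 61.6, 79.6 and 83.8 FPKM in SZ kidneys, against 43.3, 72.2 and 80.8 FPKM in CKD kidneys (log2 fold change 0.23, limma adjusted p = 0.32). None of the principal cell markers was called in this comparison, 0 of 4 in either direction. For Aqp5 the mean log2(FPKM + 1) was 0.515 in SZ and 0.377 in CKD kidneys (unadjusted exact two-sided permutation p = 0.23).

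Set against untreated kidneys, the SZ kidneys differed in 1 of the 7 tested aquaporins, Aqp6, which was lower, and 8.61% of all tested genes were called lower and 12.5% higher, 21.1% in all. Aqp6 ranged from 4.19 to 12.3 FPKM in SZ and from 16.3 to 38.9 FPKM in NC libraries, with no overlap, as for 5.7% of all tested genes in that direction and 8.86% in the other. It fell by 1.31 (SE 0.29, limma adjusted p = 0.0039), and all 5 intercalated cell markers were lower too. Aqp1 differed by -0.34 (95% confidence interval -0.81 to 0.12, limma adjusted p = 0.29), Aqp11 by -0.34 (-0.72 to 0.034, adjusted p = 0.19), Aqp3 by -0.40 (-0.93 to 0.12, adjusted p = 0.27) and Aqp7 by -0.24 (-0.55 to 0.078, adjusted p = 0.28). All of these intervals include 0 and also losses of up to the lower limits given, so the levels are not shown to be equal to those of untreated kidneys. Aqp4 differed by -0.31 (adjusted p = 0.32) and Aqp2 by -0.15 (adjusted p = 0.81). Aqp11 would pass without SZ replicate 1, its highest SZ library, at -0.51 with a limma adjusted p of 0.024. In a fit with array weights, Aqp1 (-0.38) and Aqp4 (-0.45) would pass, beside 2776 of all 13851 tested genes called lower. The median log2 fold change of the 7 genes was -0.34, against -0.035 for all tested genes. For Aqp5 the mean log2(FPKM + 1) was 0.515 in SZ and 0.782 in NC kidneys (unadjusted exact two-sided permutation p = 0.032).

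**Figure D2:**
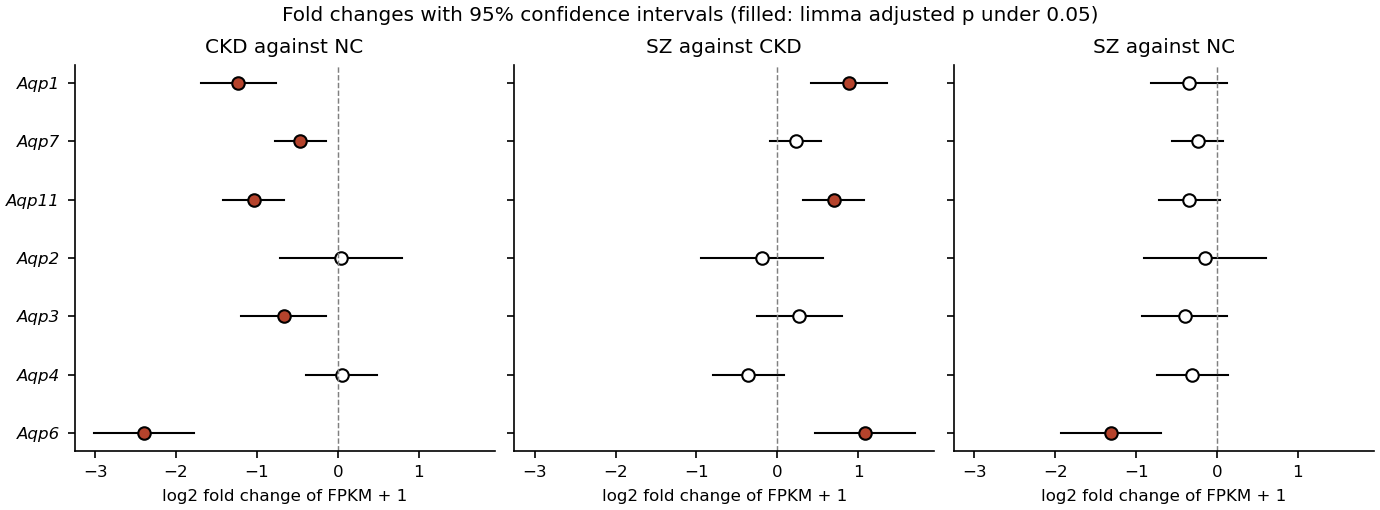
Log2 fold changes of FPKM + 1 for the 7 tested aquaporins (points) with 95% confidence intervals (lines) in CKD against NC, SZ against CKD and SZ against NC; filled points have a limma adjusted p under 0.05. Filled points lie left of 0 for Aqp1, Aqp7, Aqp11, Aqp3 and Aqp6 in CKD against NC, right of 0 for Aqp1, Aqp11 and Aqp6 in SZ against CKD, and only for Aqp6 in SZ against NC.

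To compare each channel with its own cell type, the mean log2(FPKM + 1) of that cell type's markers was subtracted in every library, a difference that no library scaling can move by more than the pseudocount allows. Of 21 such tests, 7 genes in 3 comparisons, 3 passed after Benjamini-Hochberg adjustment of exact permutation p-values over the 21, and 2 of the 3 were higher in CKD than in NC. Aqp4 relative to the principal cell markers was -1.99 ± 0.257 in CKD and -2.90 ± 0.350 in NC kidneys, a difference of 0.91 (SD, n = 6 each; exact two-sided permutation p = 0.0022, adjusted p = 0.023). Every CKD library was above every NC library. Aqp7 relative to the proximal tubule markers was -0.43 ± 0.358 in CKD and -1.23 ± 0.264 in NC kidneys, a difference of 0.80 (SD, n = 6 each, exact two-sided permutation p = 0.0022, adjusted p = 0.023), again without overlap. That marker list was drawn up for the proximal tubule as a whole and not for the straight part, where AQP7 lies. The part of a difference between segments in this result was not tested. The third was Aqp4 in SZ against CKD, at -2.69 ± 0.330 in SZ and -1.99 ± 0.257 in CKD kidneys, a difference of -0.70 (SD, n = 6 each; exact two-sided permutation p = 0.0043, adjusted p = 0.030). That one was lost on leaving out any of CKD replicates 2 to 6 in turn (adjusted p from 0.057 to 0.076). Without CKD replicates 2 and 5 and SZ replicate 3, the CKD against NC differences were 0.88 for Aqp4 and 0.65 for Aqp7, both at an adjusted permutation p of 0.050, the smallest that 2 such differences among 21 can reach with 4 against 6 libraries. The Aqp4 difference in SZ against CKD was then -0.74.

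For Aqp2 the difference from the principal cell markers was 3.4 ± 0.625 in CKD and 2.50 ± 0.192 in NC kidneys, higher by 0.90, which did not pass the adjustment (exact permutation p = 0.013, adjusted p = 0.068). It passed with a pseudocount of 0.1 (adjusted permutation p = 0.045) and without CKD replicate 1 (adjusted permutation p = 0.015). With a library left out the Aqp2 difference ranged from 0.76 to 1.08, with an adjusted permutation p of up to 0.12. Without the 3 libraries that stood apart by a lower value of long genes it was 0.60 (adjusted permutation p = 0.14). Aqp1 stayed close to its markers: 2.0 ± 0.476 in SZ, 2.07 ± 0.327 in CKD and 2.04 ± 0.505 in NC kidneys, with adjusted permutation p of 0.90 in all 3 comparisons. Aqp11 differed from the same markers by 0.22 in CKD against NC (adjusted permutation p = 0.45), Aqp3 from the principal cell markers by 0.19 (adjusted permutation p = 0.71) and Aqp6 from the intercalated cell markers by -0.46 (adjusted permutation p = 0.27). A p that misses the threshold does not show that these genes and their markers moved alike.

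**Figure D3:**
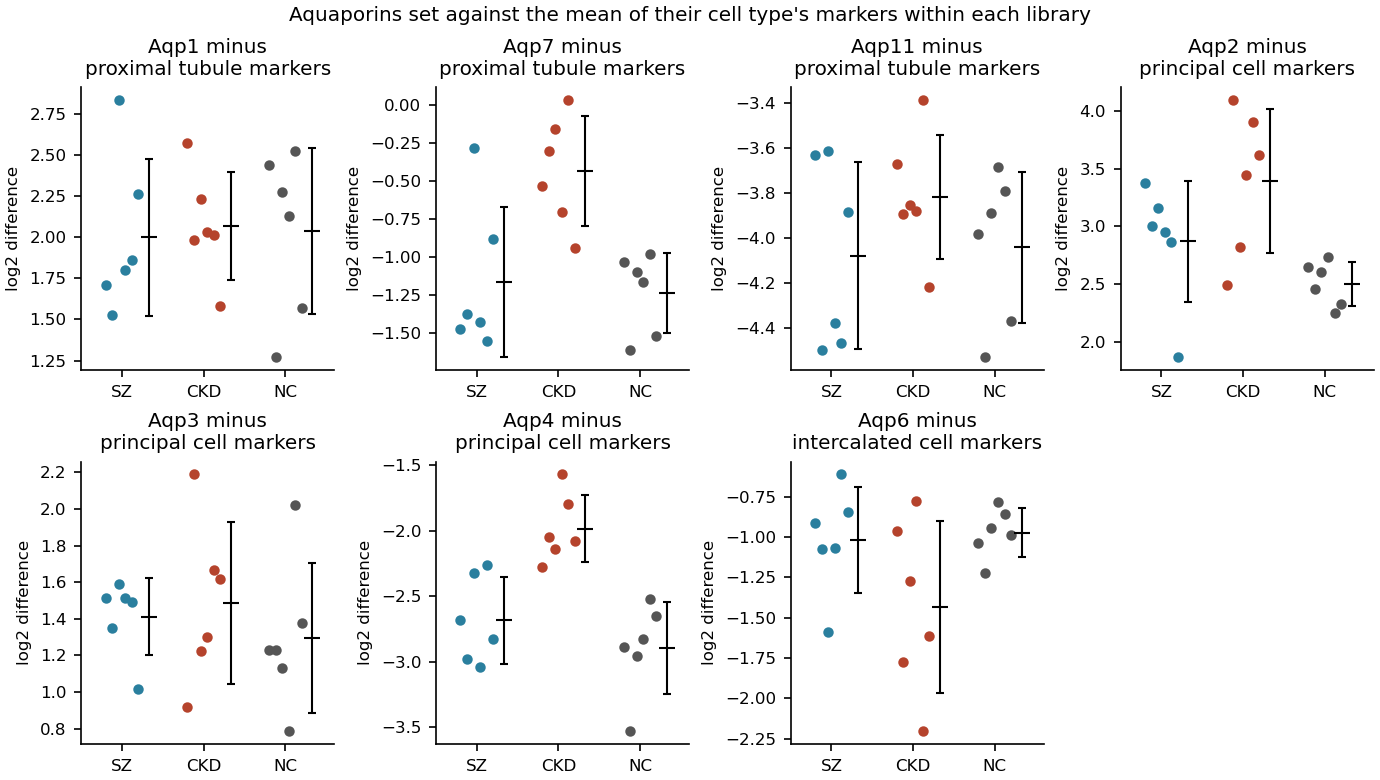
Log2(FPKM + 1) of each aquaporin minus the mean log2(FPKM + 1) of its cell type's markers in the same library, with SZ, CKD and NC from left to right; points are libraries and black bars are means with SD (n = 6 per group). The CKD points lie above all NC points for Aqp7 and Aqp4, and the 3 groups overlap for Aqp1, at means of 2.0 in SZ, 2.07 in CKD and 2.04 in NC.

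Channels that work in the same cell or lie close together on the chromosome were also compared with each other. The 3 pairs were chosen after their values were seen, giving 9 exact two-sided permutation tests adjusted together. The adjustment does not cover that choice of pairs, so these p-values can overstate the evidence and are given as description only. Aqp2 minus Aqp3, the entry and exit channels of the principal cell, was 1.46 ± 0.345 in SZ, 1.91 ± 0.276 in CKD and 1.21 ± 0.583 in NC kidneys on the log2 scale (SD, n = 6 each). It was higher by 0.71 in CKD against NC (permutation p = 0.015, adjusted p = 0.027) and differed by -0.46 in SZ against CKD (permutation p = 0.028, adjusted p = 0.042). The first of these was lost without CKD replicate 2, 4, 5 or 6 (adjusted p from 0.055 to 0.062), and the second without any of those or SZ replicate 3, 4, 5 or 6 (adjusted p from 0.058 to 0.091). Aqp2 minus Aqp6, genes close together on chromosome 7 that belong to different cells of the same duct, was 3.92 ± 0.871 in SZ, 5.19 ± 1.29 in CKD and 2.75 ± 0.206 in NC kidneys (SD, n = 6 each). It was higher in CKD than in NC by 2.44 with no overlap (permutation p = 0.0022, adjusted p = 0.019) and higher in SZ than in NC by 1.17 (permutation p = 0.015, adjusted p = 0.027), and its difference in SZ against CKD, -1.27, did not pass (permutation p = 0.076, adjusted p = 0.097). Aqp1 minus Aqp7, of the proximal tubule, was 3.16 ± 0.168 in SZ, 2.51 ± 0.388 in CKD and 3.27 ± 0.243 in NC kidneys (SD, n = 6 each). It differed by -0.77 in CKD against NC (permutation p = 0.0065, adjusted p = 0.019) and was higher in SZ than in CKD by 0.66 (permutation p = 0.0043, adjusted p = 0.019). Without CKD replicates 2 and 5 and SZ replicate 3 these differences kept their sign, and Aqp2 minus Aqp6 in CKD against NC was the one that still passed, where the smallest exact p-values possible are 0.0022 to 0.0079.

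The genes that followed Aqp1 most closely over the 18 libraries were Glyctk, a glycerate kinase, Paqr5, a membrane progestin receptor, and Cdhr2, a cadherin of the brush border. Their centred log2(FPKM + 1) differed from that of Aqp1 by a root mean square of 0.17, 0.19 and 0.19, whereas Aqp1 itself varied by 0.63 and the median over 11618 genes was 0.68. Glyctk averaged 121.6 ± 10.4 FPKM in SZ, 61.9 ± 21.7 FPKM in CKD and 127.8 ± 15.8 FPKM in NC kidneys (SD, n = 6 each). Aqp2 had no such close companion. Its nearest genes were Hoxd9, Apcdd1l and C1qtnf4, at 0.43, 0.45 and 0.46, against a spread of 0.63 for Aqp2 itself.

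The vasopressin receptor cascade, from Gs to protein kinase A, phosphodiesterases, arrestins and CREB, with the V1a receptor listed beside them, held 20 tested genes. Of these, 3 were lower and 5 higher in CKD than in NC. Over all tested genes 26% were lower and 24.4% higher, 50.3% in all, so the share called was not above that of all genes, and the list's median was -0.016, against -0.040 for all genes. The 3 lower were Prkar2a (-1.33) and Pde4d (-0.75), a kinase A subunit and a cAMP phosphodiesterase, and Adcy6 (-0.65), the adenylyl cyclase that serves the V2 receptor in collecting duct. Prkar2a was at 4.45 and 2.73 FPKM in CKD replicates 2 and 5, against 17.7 to 22.9 FPKM in the other CKD libraries. Pde4d was at 1.07 and 0.739 FPKM in the same replicates, against 2.20 to 2.89 FPKM in the others. The 5 higher were Prkar1b (0.83), Arrb2 (0.83), Adcy3 (0.76), Prkar2b (0.69) and Grk2 (0.41), which include the arrestin and the kinase that shut receptors down. Under TPM these counts were 0 lower and 9 higher, beside 1279 lower and 6581 higher of all 13851 tested genes. The higher count was 2 at a mean FPKM of at least 5, where Adcy3, Arrb2 and Prkar2b were too low to be tested. It was 8 with the length correction. Of all tested genes, 1903 of 8491 were higher at that mean FPKM and 3697 of 13851 with the length correction. Adcy6 averaged 12.7 ± 1.99 FPKM in SZ, 12.4 ± 2.70 FPKM in CKD and 19.8 ± 3.32 FPKM in NC kidneys (SD, n = 6 each). In SZ against CKD, where 6.82% of all tested genes were lower and 4.16% higher, Prkar1b alone was called, at -0.41 (limma adjusted p = 0.049). Of this list none was lower with a pseudocount of 0.1, without the filter, with voom, with only those groups fitted, or on leaving out, in turn, any of CKD replicates 3, 4 and 5 or SZ replicates 1, 2, 4 and 6, and 2 were lower without CKD replicate 1 or SZ replicate 3. In SZ against NC, 2 were lower, Adcy6 (-0.60) and Prkaca (-0.31), and 3 higher, Arrb2 (0.56), Adcy3 (0.49) and Prkar1b (0.42), beside 8.61% lower and 12.5% higher of all tested genes. Under TPM 0 were lower and 5 higher, beside 254 lower and 3544 higher of all tested genes. At a mean FPKM of at least 5, where Arrb2 and Adcy3 were too low to be tested, 1 was higher, beside 877 of all 8491 tested genes. Without NC replicate 1 there was 1 lower, beside 768 of all 13851 tested genes.

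Of AQP2 trafficking and turnover genes, 23 were tested among 24 listed, and the share called was below that of all tested genes in CKD against NC, 26% lower and 24.4% higher. Of the 23, 5 were lower in CKD than in NC, Myo5b (-0.64), Cltc (-0.49), Vamp2 (-0.46), Ezr (-0.46) and Stxbp2 (-0.21), and 4 were higher, Sipa1 (0.85), Stub1 (0.45), Stx4 (0.38) and Vamp3 (0.33). Myo5b is the motor that moves recycling vesicles, Cltc the clathrin heavy chain of endocytosis, Vamp2 a vesicle fusion protein and Stub1 a ubiquitin ligase. Myo5b was at 6.88 and 6.81 FPKM in CKD replicates 2 and 5, against 13.7 to 16.3 FPKM in the other CKD libraries. The list's median was -0.094. Under TPM 0 were lower and 15 higher, beside 1279 lower and 6581 higher of all 13851 tested genes, and Stxbp2 changed sign to 0.23. Of the same genes, 2 were higher in SZ than in CKD, Myo5b (0.70) and Nedd4l (0.43), a ubiquitin ligase, beside 4.16% higher and 6.82% lower of all tested genes. Under TPM 0 were higher and 2 lower, beside 285 higher and 1613 lower of all tested genes, and with only the SZ and CKD libraries fitted 0 were higher. The count of higher genes was 1 on leaving out, in turn, any of CKD replicates 2 and 5 or SZ replicates 1, 2, 4, 5 and 6, and 5 without SZ replicate 3. In SZ against NC, where 8.61% of all tested genes were lower and 12.5% higher, 1 was lower, Vamp2 (-0.41). Under TPM 0 were lower and 7 higher, beside 254 lower and 3544 higher of all 13851 tested genes. With plain totals 0 were lower and 4 higher, beside 379 lower and 2861 higher of all tested genes.

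Among transcription factors known to act on the Aqp2 gene or on collecting duct identity, 4 of 8 tested were lower in CKD than in NC and 1 was higher, beside 26% and 24.4% of all tested genes. The lower ones were Tfcp2l1 (-1.44), Nr1h4, the bile acid receptor FXR (-1.26), Gata2 (-0.53) and Grhl2 (-0.37), and the higher one was Elf3 (1.82). Elf5, a factor of principal cells, was below the filter. Tfcp2l1 averaged 60.3 ± 23.0 FPKM in SZ, 34.3 ± 12.9 FPKM in CKD and 89.8 ± 14.5 FPKM in NC kidneys (SD, n = 6 each), and every CKD library was below every NC library. Elf3 averaged 36.4 ± 12 FPKM in SZ, 59.6 ± 16.9 FPKM in CKD and 16.0 ± 4.22 FPKM in NC kidneys, every CKD library being above every NC library. Under TPM 2 of the 8 were lower and 1 higher, beside 1279 lower and 6581 higher of all 13851 tested genes. At a mean FPKM of at least 5, where Gata2 and Grhl2 were too low to be tested, 2 were lower, beside 2544 of all 8491 tested genes. In SZ against CKD, where 6.82% of all tested genes were lower and 4.16% higher, Nr1h4 was higher (0.68). The count of higher genes there was 0 with only those groups fitted and without CKD replicate 5 or SZ replicate 4, 2 without CKD replicate 4 or SZ replicate 2, and 3 without CKD replicate 1 or SZ replicate 3. In SZ against NC, where 8.61% of all tested genes were lower and 12.5% higher, Nr1h4 was lower (-0.58) and Elf3 higher (1.11). The Nr1h4 call was lost under TPM (-0.29, adjusted p = 0.20) and with plain totals (-0.37, adjusted p = 0.082), where 2 of the list were higher, and no gene of the list was lower without SZ replicate 6.

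Genes that build the salt gradient drawing water through these channels were mostly lower. In CKD against NC, 5 of 6 tested among 8 listed were lower, with a list median of -1.41, beside 26% of all tested genes, among them Umod, the uromodulin of the thick ascending limb (-1.70), Bsnd (-1.57), Kcnj1 (-1.41) and Slc12a1, the sodium, potassium and chloride cotransporter (-0.97). Under TPM 4 of the 6 stayed lower and 1 was higher, beside 1279 lower and 6581 higher of all 13851 tested genes. In SZ against CKD, where 6.82% of all tested genes were lower and 4.16% higher, 2 of 6 were higher, among them Bsnd (0.72). The count was 1 of 6 under TPM and 0 without CKD replicates 2 and 5 and SZ replicate 3 together. With a single library left out the count was 0 without CKD replicate 3 or 5 or SZ replicate 1 or 4, and 1 without CKD replicate 2 or 4 or SZ replicate 2 or 6. In SZ against NC the same 5 symbols were lower, with a median of -0.98, beside 8.61% lower and 12.5% higher of all tested genes. The urea transporter Slc14a1 was below the filter. Another 8 genes were listed around osmolytes and NFAT5, the factor that answers to high salt, and not every one makes or carries an osmolyte. Of the 8, 3 were lower in CKD than in NC, Sord (-1.22), Sgk1 (-0.86) and Hspa4l (-0.37). The 2 higher ones were Akr1b1, the aldose reductase that makes sorbitol (1.33), and Slc6a12, the betaine carrier (1.00). Over all tested genes 26% were lower and 24.4% higher in that comparison. In SZ against CKD, Akr1b1 (-0.81) and Sgk1 (-0.77) were lower, beside 6.82% lower and 4.16% higher of all tested genes. Without SZ replicate 1, 4 or 5, 1 of the list was lower. In SZ against NC, Sgk1 was lower (-1.63) and Akr1b1 higher (0.52), beside 8.61% lower and 12.5% higher of all tested genes. The Akr1b1 call was lost without the filter, with the replicate block and on leaving out, in turn, any of NC replicates 1, 3, 5 and 6 or SZ replicates 1, 2, 3, 5 and 6. Under TPM 1 of the 8 was lower and 2 higher in CKD against NC, where 1279 of all tested genes were lower and 6581 higher. At a mean FPKM of at least 5, where Slc6a12 was too low to be tested, 1 was higher, beside 1903 of all 8491 tested genes.

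Signals that counteract vasopressin in the collecting duct, among them prostaglandins, endothelin, nucleotides and calcium sensing, held 15 tested genes, of which 7 were higher and 3 lower in CKD than in NC, beside 24.4% and 26% of all tested genes. Their median was 0.29, and at a mean FPKM of at least 5, which tests fewer genes, 3 were higher. The largest changes were Sctr, the secretin receptor (2.50), Casr, the calcium-sensing receptor (-2.28), Ptgs2, the inducible cyclooxygenase (-2.03), and P2ry2, a nucleotide receptor (1.80). The other lower one was Adra2b (-0.72). Casr was at 0.195 and 0.604 FPKM in CKD replicates 2 and 5, against 2.23 to 10.2 FPKM in the other CKD libraries. The secretin receptor couples to Gs and raises cAMP, unlike most of the list. Sctr averaged 6.88 ± 3.48 FPKM in SZ, 20.3 ± 14.9 FPKM in CKD and 2.18 ± 0.633 FPKM in NC kidneys (SD, n = 6 each). Under TPM 9 were higher and 2 lower, beside 6581 higher and 1279 lower of all 13851 tested genes. In SZ against CKD, where 6.82% of all tested genes were lower and 4.16% higher, 4 of 15 were lower and none higher: Rgs2 (-1.30), Sctr (-1.29), Ptgs1 (-0.92) and P2ry2 (-0.75). This count was 2 without the filter, at a mean FPKM of at least 5, with only those groups fitted, and on leaving out, in turn, any of CKD replicates 3, 4 and 5 or SZ replicates 1, 2, 4 and 6, and 2 genes were higher without CKD replicate 1. In SZ against NC, where 8.61% of all tested genes were lower and 12.5% higher, 6 were higher and 2 lower, Casr (-1.34) and Ptgs2 (-1.97). The lower count was 1 under TPM, with plain totals, with voom, with a pseudocount of 0.1, without the filter, at a mean FPKM of at least 5 (where 2 were higher), and on leaving out, in turn, any of NC replicates 1, 3 and 4 or SZ replicates 1, 3 and 5. Macrophages also express several of these genes, and all 4 macrophage markers were higher in CKD than in NC, with sums of 91.7 to 299 FPKM in CKD libraries and 13.6 to 25.1 FPKM in NC libraries. All 4 were lower in SZ than in CKD, with sums of 50.1 to 120 FPKM in SZ libraries. The part of macrophages in these results was not tested.

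**Figure D4:**
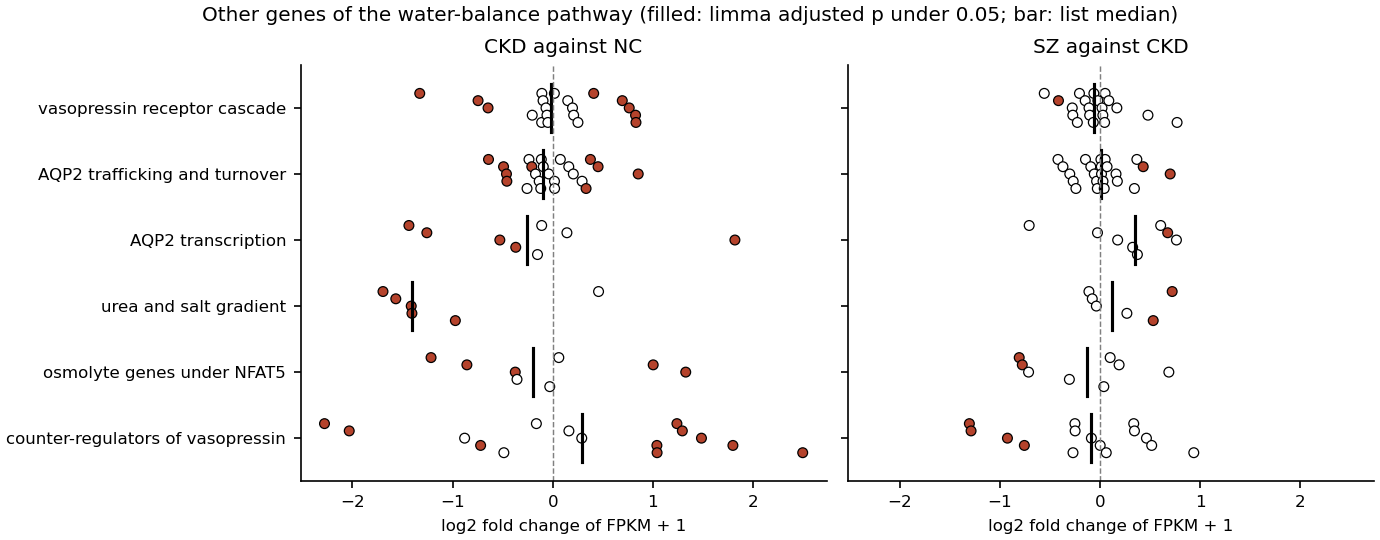
Log2 fold changes of FPKM + 1 of the tested genes of 6 lists around the aquaporins, in CKD against NC and in SZ against CKD; each point is a gene, filled where the limma adjusted p is under 0.05, and the vertical bar is the list's median. In CKD against NC the salt gradient genes lie left of 0 in 5 of 6, with a median of -1.41, whereas the cascade and trafficking genes lie on both sides with medians of -0.016 and -0.094.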

How the data were processed

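Kidney RNA was extracted with Trizol and made into libraries with an Illumina TruSeq kit, per the labels' protocols. HISAT2 2.0.5 and the mRatBN7.2 build are named in the submitters' processing notes; no source used here names the counting tool, its strand setting or the scaling. The deposited values are FPKM per gene, and the gene length in the same table is the authors' own. Whole reads were recovered from the FPKM steps (100% of values whole within 0.01), which gave the depth. Group differences were fitted in R 4.3.3 by limma 3.58.1, on log2(FPKM + 1), as 3 group means over 18 libraries with an intensity trend, for genes at an FPKM of 1 or more in at least 6 libraries. Single values were compared with exact permutation tests over all 924 splits of 6 against 6. The steps were tested on simulated data. The members and lists were chosen with earlier results of these data known. All members are named; of each list, called genes are named where a direction holds 5 or fewer, otherwise those among the 4 largest changes in CKD against NC. Genes nearest to Aqp1 and Aqp2 were ranked by the root mean square difference of centred values. Replicate numbers were not treated as pairs. The alternatives were a pseudocount of 0.1, no filter, a mean FPKM of at least 5, TPM scaling, plain totals, voom on the recovered reads, 2 groups only, array weights, a replicate block, a gene length correction and libraries left out. Another row of the table for the same gene name, at 0 in all libraries, was not used for Aqp6. Some genes of the lists are counted but not reported here by name.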

Additional observations from a re-analysis of the deposited data

Results flagged for a closer look

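In 24 sets of 6 values, 8 aquaporins in 3 groups, 2 held a library whose gap to its nearest neighbour was large for the group's range by Dixon's test, a flag that chance raises in about 1 in 20 groups. Both were of Aqp11. SZ replicate 1 had 16.7 FPKM where the next SZ library had 9.97 FPKM, a gap of 0.704 of the range, and NC replicate 5 had 14.5 FPKM where the next NC library had 11.8 FPKM, a gap of 0.788 of the range.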

How the results depend on the processing

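Of the counts of aquaporins called, lower in CKD against NC was 5 as reported and 3 under TPM scaling and with plain totals (Aqp3 and Aqp7 lost), and was 4 to 5 with a library left out. Higher in SZ against CKD was 0 with only those groups fitted, where 143 of all 13851 tested genes were higher, against 576 as reported. It was 2 without a filter (Aqp6 lost, adjusted p = 0.051) and 0 to 3 with a library left out. Lower in SZ against NC was 3 with array weights, Aqp1 (-0.38), Aqp4 (-0.45) and Aqp6. In that fit 2776 of all 13851 tested genes were lower, against 1193 as reported. The count was 1 to 2 with a library left out. The count of passing differences from cell type markers was 0 without CKD replicates 2 and 5 and SZ replicate 3, where the 2 in CKD against NC stood at 0.050, the smallest adjusted p that 2 can reach there, 4 with a pseudocount of 0.1, and 2 to 4 with a library left out. The replicate block removed the Aqp3 call in CKD against NC (limma adjusted p = 0.055, 4 genes lower) and changed no other aquaporin call. Same-numbered libraries correlated by -0.36 to 0.23, with 1, 0 and 1 of 6 matching their own number best in the 3 comparisons. A pairing by number was therefore not shown, though so few libraries cannot exclude one. Signs turned for values that were not called. Aqp2 in CKD against NC was -0.17 with array weights, -0.038 with the length correction, -0.27 without the 3 libraries and -0.21 to 0.24 with a library left out. Aqp2 was 0.082 in SZ against CKD without the 3 libraries (-0.38 to 0.066 with a library left out), and in SZ against NC 0.16 under TPM and 0.069 with plain totals (-0.30 to 0.099). Aqp4 in CKD against NC was -0.085 with array weights (-0.10 to 0.17), and Aqp7 in SZ against NC 0.069 under TPM. Against markers and without the 3 libraries, Aqp7 was -0.11 and Aqp6 0.071 in SZ against NC, and Aqp3 was -0.031 in CKD against NC and 0.11 in SZ against CKD. With a library left out, Aqp1 ranged from -0.12 to 0.13 in CKD against NC, -0.24 to 0.030 in SZ against CKD and -0.20 to 0.060 in SZ against NC, Aqp7 from -0.11 to 0.15, Aqp11 from -0.13 to 0.047 and Aqp6 from -0.13 to 0.071 in SZ against NC, and Aqp3 from -0.19 to 0.068 in SZ against CKD. The cause was not tested. Aqp5, with at most 38 reads in a library, is limited by depth.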
